A study of Homo sapiens with 4 samples.

Results

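A set of 174 genes stood apart in 1 control library of an RNA sequencing study of hTERT-RPE1. This established human line comes from retinal pigment epithelium and is kept dividing by telomerase. The set was chosen by measured levels in all 4 libraries: a gene had to reach 3 CPM (counts scaled to a common library total) in sgControl replicate 2 and at least 2 times its level in each of the other libraries. Genes whose symbols mark interferon, antigen presentation, histone, collagen and cadherin families were then taken out by name, which removed 63 of the 237 genes that met the thresholds. The 174 members make up 0.885% of the 19653 genes in the deposited table and 1.57% of the 11106 genes that reached 3 CPM in sgControl replicate 2. Because the levels that chose the members are the levels described, the height of sgControl replicate 2 over the other libraries is a description and carries no test.

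The sg53BP1 group, given as genotype 53BP1 knockout, had received Cas9 and a guide targeting 53BP1 by lentivirus, while the sgControl group, given as genotype WT, carried Cas9 and no guide. Each group had 2 libraries, all of hTERT-RPE1 cells grown in DMEM with serum, and no treatment was given to either group. The labels do not say whether the edited cells were 1 clone or a mixed population, nor whether replicates came from separate cultures, so p-values measure the spread between these libraries, which may be technical. Fewer cells of a kind and less RNA per cell cannot be told apart in such bulk libraries.

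Much of what follows concerns interferon-induced genes. Interferons are secreted proteins that act through cell surface receptors, JAK kinases and STAT transcription factors, and the factors they activate bind a short DNA motif, the interferon-stimulated response element (ISRE), or the gamma-activated site (GAS) near gene starts. The genes they induce include sensors of foreign nucleic acid, antiviral enzymes, parts of the antigen presentation machinery and regulators of cell death, and epithelial cells can mount this programme without immune cells being present.

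Library totals lay between 16654411 and 18164086 gene counts, so that 3 counts, used as the detection floor, equalled 0.165 to 0.180 CPM. TP53BP1, the targeted gene, had 431 and 594 counts in the libraries labelled sgControl and 1743 and 1516 counts in those labelled sg53BP1. It was thus not lower where the knockout is labelled, and groups are named below only as the labels name them. Whether labels were exchanged was not tested; if they were, each statement below of higher or lower in sg53BP1 would refer to the other genotype. Mitochondrial genes took 1.74% of the counts in sgControl replicate 2 and between 2.73% and 2.93% in the other libraries, while ribosomal protein genes took 3.59% there and 3.88% to 4.54% elsewhere; the part of either in the results was not tested. Of 18 measured markers of retinal pigment epithelium, KRT8, KRT18, MITF, OTX2, RDH5 and LRAT reached 3 CPM in sgControl replicate 2, whereas in that library TYR had no count and RLBP1, BEST1 and TYRP1 were under 1 CPM. The 8 measured lymphocyte markers summed to between 1.08 and 3.03 CPM and the 10 macrophage and dendritic cell markers to between 5.51 and 12.3 CPM in a library. Neither sum was highest in sgControl replicate 2.

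Stretches before the start sites of 8 members are shown, all picked because they hold the ISRE core there. The sequence was no part of the rule by which the member genes were chosen. The core is written as GAAA, 2 bases of any kind and GAAA again. It was searched on both strands in a window from 250 bases before to 50 bases after the start. All stretches are from RefSeq on GRCh38.p14, another build than the hg19 of the counts. They are read 5′ to 3′ along the strand of the gene, with the core in capitals. Where the capitals read TTTC, 2 bases and TTTC, the core lies on the other strand. RTP4 holds the core at 2 places.
LAP3, chr4:17576985-17577054, plus strand: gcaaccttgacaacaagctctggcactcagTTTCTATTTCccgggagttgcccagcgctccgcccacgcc
NMI, chr2:151289792-151289861, minus strand: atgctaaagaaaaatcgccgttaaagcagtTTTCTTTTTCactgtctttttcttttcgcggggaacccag
EPSTI1, chr13:42992252-42992321, minus strand: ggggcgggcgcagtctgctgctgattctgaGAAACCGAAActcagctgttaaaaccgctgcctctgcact
RTP4, chr3:187368313-187368384, plus strand: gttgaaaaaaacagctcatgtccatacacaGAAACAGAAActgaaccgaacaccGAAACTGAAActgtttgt
TNFSF10, chr3:172523578-172523647, minus strand: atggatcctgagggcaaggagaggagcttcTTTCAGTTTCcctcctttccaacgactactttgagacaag
CEACAM1, chr19:42528558-42528627, minus strand: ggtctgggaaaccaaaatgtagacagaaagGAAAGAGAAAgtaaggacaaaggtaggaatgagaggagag
AIM2, chr1:159076917-159076986, minus strand: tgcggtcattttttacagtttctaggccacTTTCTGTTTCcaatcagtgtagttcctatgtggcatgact
GCA, chr2:162318666-162318735, plus strand: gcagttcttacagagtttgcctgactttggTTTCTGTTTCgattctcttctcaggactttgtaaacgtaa

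A promoter window was on file for 122 of the 174 members, and 18 of these, or 14.8%, held the ISRE core. Among all 27305 windows the share was 3.65%, and among the 9118 windows of genes that reached 3 CPM in sgControl replicate 2 it was 3.01%. The core was found in 10 of 19 windows (52.6%) of members on a list of interferon-induced genes and in 8 of 103 windows (7.77%) of all other members. Those 8 belonged to GCA, SLC2A12, GIMAP2, DDO, HEPH, FCRLA, PATL2 and PEX5L. For interferon and antigen presentation genes that the symbol rule had removed, the core was found in 17 of 34 windows (50%). The GAS letters TTCNNNGAA, which read the same on both strands and can overlap an ISRE core, were found in 11 of 122 member windows (9.02%), against 7.88% of all windows. A match is a description of the letters and does not show that a factor binds there.

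**Figure D1:**
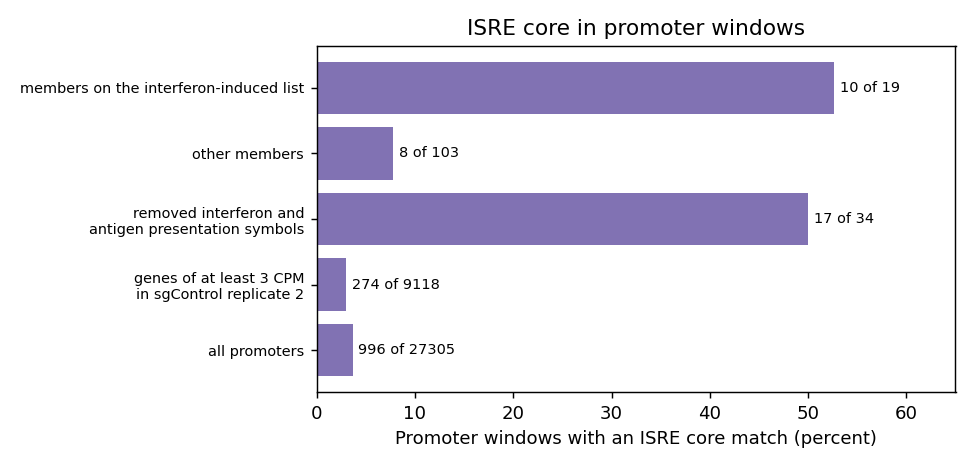
Share of promoter windows that hold the ISRE core, in percent, with the number of windows with a match and the number searched beside each bar. The share was 52.6% for members on the interferon-induced list and 7.77% for the other members, against 3.65% of all windows.

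The members spanned a wide range of levels in sgControl replicate 2. The lowest stood at 3.03 CPM, the median member at 11.6 CPM and the highest, THBS1, at 3573 CPM; 36 members lay between 3 and 5 CPM, 41 between 5 and 10, 82 between 10 and 100, and 15 at or above 100 CPM. The ratio of sgControl replicate 2 to the highest other library had a median of 2.69, and 79 members stayed under 2.5. A ratio of at least 3 was reached by 69 members, of at least 5 by 28 and of at least 10 by 13. Together the members took 1.10% of all counts in sgControl replicate 2, against 0.369% in sgControl replicate 1 and 0.336% and 0.325% in the sg53BP1 libraries. Without THBS1 these shares were 0.740%, 0.197%, 0.252% and 0.249%.

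Near the threshold, ERAP2, KALRN and CCDC148 were the members with the smallest ratios, at 2.00, 2.00 and 2.01. Just outside it, ZNF699 and ABCA5 both had a ratio of 2.00 and MACIR of 1.99, which are indistinguishable from the ratios inside at these counts. The same thresholds and symbol rule took 80 genes in sgControl replicate 1 and 1 gene in each sg53BP1 library. A high library of its own was thus found mainly in the controls, and in replicate 2 more than in replicate 1.

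**Figure D2:**
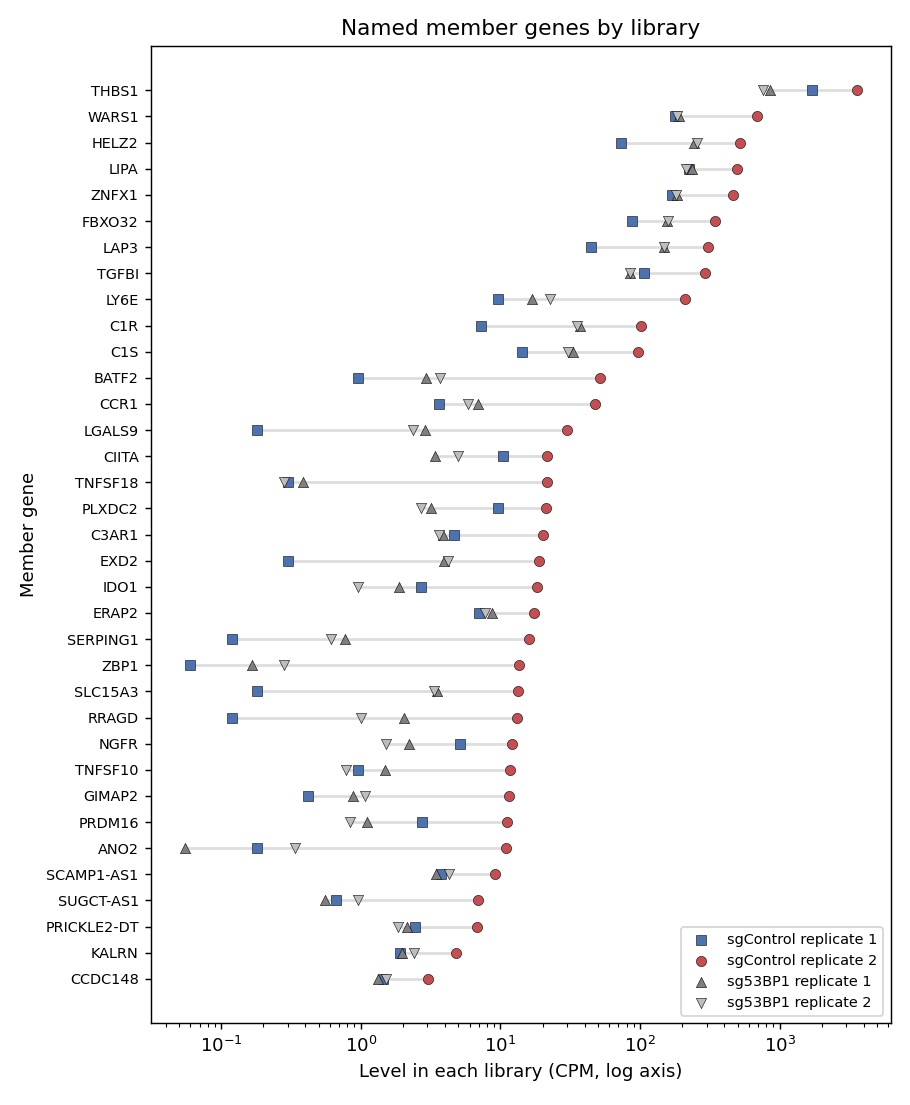
Level of each named member in the 4 libraries, in CPM on a log axis, 1 marker per library. The circle of sgControl replicate 2 is the highest in every row, as the rule requires, while the square of sgControl replicate 1 lies left of both sg53BP1 triangles for genes such as LAP3, LGALS9 and SLC15A3 and right of them for genes such as THBS1, CIITA and PLXDC2.

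Members with the largest ratios were nearly silent outside sgControl replicate 2. TNFSF18, a ligand of the TNF family known as GITRL, had 5 and 360 counts in sgControl replicates 1 and 2 and 7 and 5 in the sg53BP1 libraries, which is 55.5 times the CPM of the highest other library. ZBP1, a cytosolic sensor of Z-form nucleic acid that can trigger necroptosis, had 1 and 228 counts against 3 and 5, for a ratio of 48.5. The chloride channel gene ANO2 had 3 and 185 counts against 1 and 6, for a ratio of 32.8. In all 3 genes a single library held nearly every count, and the other control lay within the range of counts seen in the sg53BP1 pair or under it. OR52K3P, an olfactory receptor pseudogene, had 65 counts in sgControl replicate 2 and none elsewhere, so its level there was at least 21.4-fold higher when every other library is set to 3 counts. CEACAM1, an adhesion receptor, had 112 counts there and at most 3 in another library, a ratio of 36.9 with a 95% exact binomial interval of 12.3 to 182 that covers counting error only. OR52K3P and CEACAM1 were chosen for naming after their values were seen.

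The name under which the set was proposed, genes outside the interferon response, did not hold for every member. Of the 174 members, 30 were on a list of interferon-induced genes and 144 were not. The gene lists were drawn up with earlier results of these data known, so the shares below are descriptions and carry no test. The list of interferon-induced genes, with symbols that the rule keeps, had 71 genes of at least 3 CPM in sgControl replicate 2. Of these 71 genes, 30, or 42.3%, were members. Among lists with at least 5 such genes, complement and coagulation regulators came next with 4 of 18 (22.2%), and all genes stood at 1.57%. The matrix list gave 2 of 37, the growth factor and TGF-beta list 2 of 50, and the hypoxia, lysosome and p53 lists 1 each of 25, 35 and 40. No member was on the lists of NF-kB targets (20 genes), cholesterol and fatty acid synthesis (31), ATF4 and ER stress targets (24), immediate early genes (28), ion channels and synaptic genes (25), heat shock genes (12), metallothioneins and zinc transporters (7) or non-polyadenylated small RNAs (3). KDR, an endothelial marker, was the only member among the markers of other cell types, and the endothelial list summed to 18.1 CPM in sgControl replicate 2 and 4.14 to 7.93 CPM elsewhere. KDR stood at 3.002 and 13.8 CPM in the controls and 1.87 and 1.12 CPM in the sg53BP1 libraries. It thus made up most of the list's sum in sgControl replicate 2. PECAM1, on the same list, was lowest in that library, at 2.58 and 0.713 CPM against 1.76 and 0.839 CPM. ESAM was slightly highest there, at 1.26 and 1.54 CPM against 1.21 and 0.951 CPM. The endothelial markers CDH5 and ERG were under 1 CPM in every library.

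**Figure D3:**
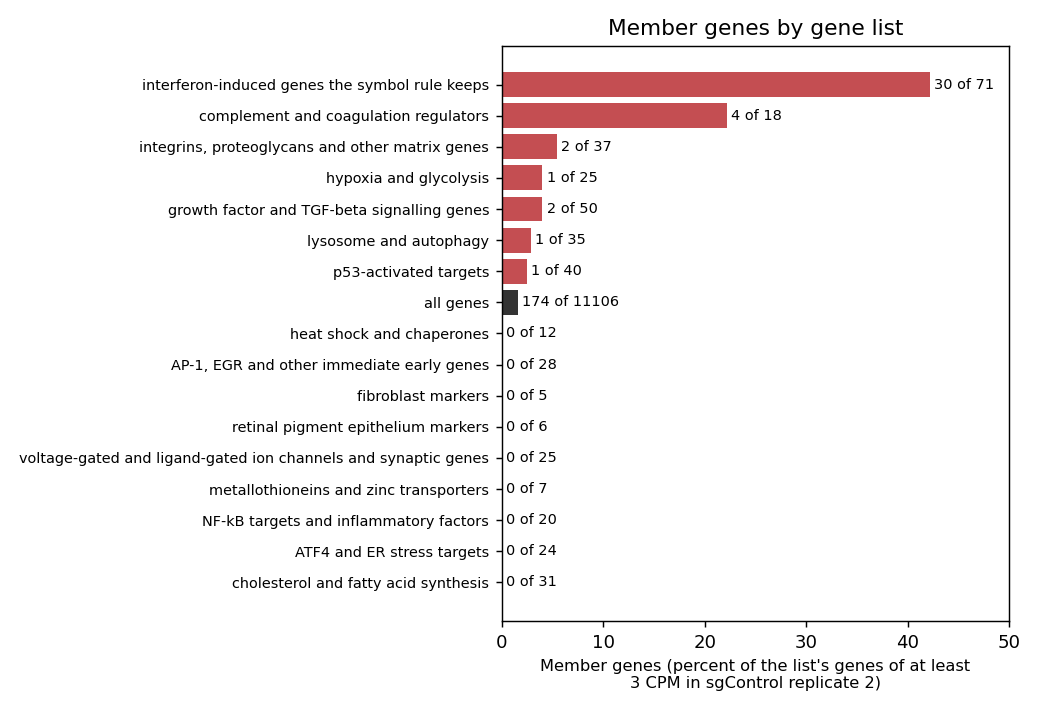
Share of each gene list, among its genes of at least 3 CPM in sgControl replicate 2, that belongs to the set, with the counts beside each bar; lists with under 5 such genes are not drawn. The interferon-induced list reaches 42.3% and the complement list 22.2%, while all genes stand at 1.57%. The lists were drawn up with earlier results of these data known.

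Antiviral enzymes and regulators included the interferon-list members with the most counts. WARS1, the cytosolic tryptophanyl-tRNA synthetase, which interferon-gamma induces, stood at 177 and 687 CPM in sgControl replicates 1 and 2 and at 189 and 183 CPM in the sg53BP1 libraries. HELZ2, a helicase and transcriptional coactivator, stood at 73.6 and 523 CPM against 242 and 256 CPM. LAP3, a leucine aminopeptidase that trims peptides, stood at 44.9 and 307 CPM against 147 and 147 CPM. The controls lay on either side of the sg53BP1 pair for all 3 genes, so the groups overlapped, but sgControl replicate 1 was close to that pair for WARS1 and far under it for HELZ2 and LAP3. UBE2L6, the conjugating enzyme that attaches the ubiquitin-like protein ISG15 to its targets, followed the second pattern, at 63.3 and 271 CPM against 113 and 123 CPM. ZNFX1, a helicase that senses viral RNA, followed the first, at 169 and 467 CPM against 183 and 182 CPM, as did LIPA, the lysosomal acid lipase, at 224 and 497 CPM against 237 and 212 CPM. The gene span of LIPA overlaps those of IFIT1, IFIT2 and IFIT3 in the annotation. Exons were not compared, so whether LIPA shared reads with those interferon-induced neighbours was not tested.

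Sensors of nucleic acid and inducers of cell death were a second part. TLR3, which detects double-stranded RNA in endosomes, stood at 9.67 and 76.5 CPM in the controls and 23.6 and 18.6 CPM in the sg53BP1 libraries. DHX58, which encodes the RIG-I-like receptor LGP2, stood at 13.4 and 80.7 CPM against 33.7 and 39.5 CPM. In both genes sgControl replicate 1 was the lowest of the 4 libraries. CASP1, the inflammatory caspase, stood at 12.7 and 60.2 CPM against 21.3 and 18.9 CPM, and MLKL, the executioner of necroptosis, at 29.1 and 65.4 CPM against 31.4 and 31.0 CPM. AIM2, which senses cytosolic DNA, had 0 and 89 counts against 4 and 1. At such counts the order of the low libraries of AIM2 cannot be told.

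Regulators and surface proteins on the interferon list had ratios over a wide range. BATF2, a transcription factor of the AP-1 family, had 16 and 865 counts in the controls and 53 and 66 in the sg53BP1 libraries, a ratio of 13.9 to the highest other library. LGALS9, which encodes galectin-9, had 3 and 505 counts against 52 and 42, for a ratio of 10.5; LGALS9 has near-identical copies, so its counts are uncertain. LY6E, a membrane-anchored protein that limits coronavirus entry, stood at 9.55 and 209 CPM against 16.7 and 22.7 CPM, a ratio of 9.21. sgControl replicate 1 was the lowest library for all 3 genes, as it was for SLC15A3, an endolysosomal peptide transporter, with 3 and 226 counts against 64 and 60. TNFSF10, the death ligand TRAIL, had a ratio of 7.83, and its 16 counts in sgControl replicate 1 lay between the 27 and 14 of the sg53BP1 pair. IDO1, which breaks down tryptophan, went the other way, with 45 and 307 counts against 34 and 17. CIITA, the master activator of MHC class II genes, had sgControl replicate 1 above both sg53BP1 libraries too, at 10.5 and 21.4 CPM against 3.41 and 4.98 CPM, so that its groups did not overlap.

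A further 41 genes of the interferon list reached 3 CPM in sgControl replicate 2 without meeting the rule, and their ratios to the highest other library lay between 0.355 and 1.97. LGALS3BP, at 1.97, and IL15RA, at 1.96, came closest. At the other end CCL5 and CXCL10, both chemokines, and TNFAIP3, an inhibitor of NF-kB, had sgControl replicate 1 as their highest library. In replicates 1 and 2 the levels were 42.4 and 15.0 CPM for CCL5, 106 and 49.3 CPM for CXCL10 and 104 and 36.8 CPM for TNFAIP3. The list as a whole summed to 4367 CPM in sgControl replicate 1, 10504 in replicate 2, and 6026 and 5855 in the sg53BP1 libraries. These genes were chosen after their values were seen.

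The 4 complement members were C1R, C1S, SERPING1 and C3AR1, and the list as a whole was not high in sgControl replicate 2. Its 33 measured genes summed to 4110 and 4022 CPM in sgControl replicates 1 and 2 and to 2468 and 2387 CPM in the sg53BP1 libraries. C1R and C1S, proteases of the first complement component, both on chromosome 12, stood at 7.21 and 102 CPM and at 14.4 and 96.9 CPM in the controls. In the sg53BP1 libraries C1R stood at 36.8 and 35.3 CPM and C1S at 32.8 and 30.5 CPM. SERPING1, which encodes the inhibitor of both proteases, had 2 and 271 counts in the controls and 14 and 11 in the sg53BP1 libraries, for a ratio of 20.9. For these 3 genes sgControl replicate 1 was the lowest library. C3AR1, the receptor of the complement fragment C3a, stood at 4.68 and 20.2 CPM against 3.85 and 3.63 CPM and had its control replicate 1 just above the pair. The proteases and their inhibitor are themselves known to be induced by interferon, although the list of interferon-induced genes did not hold them.

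Where sgControl replicate 1 lay against the sg53BP1 pair was not fixed by the rule, which holds all 3 libraries under the same bound. Among the 174 members it lay below both sg53BP1 libraries for 78, above both for 62 and between them for 34. For genes of at least 3 CPM in sgControl replicate 2 the background was 39.6% below both and 39.8% above both. Of the 30 interferon-list members 21 lay below both and 5 above both, with a median sg53BP1 level 1.21 times that of sgControl replicate 1. The other 144 members divided evenly, with 57 below both and 57 above both, and a median ratio of 0.990. The 51 interferon and antigen presentation genes removed by symbol had 32 below both, 14 above both and a median ratio of 1.43. Positions were read from CPM as counted. For the medians sgControl replicate 1 was held at 3 counts or more. The mean of the sg53BP1 libraries was held at 3 counts or more over both libraries together. These floors are unequal in CPM, which can raise sgControl replicate 1 against that mean for genes with few counts. Whether the sets differ from each other was not tested.

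**Figure D4:**
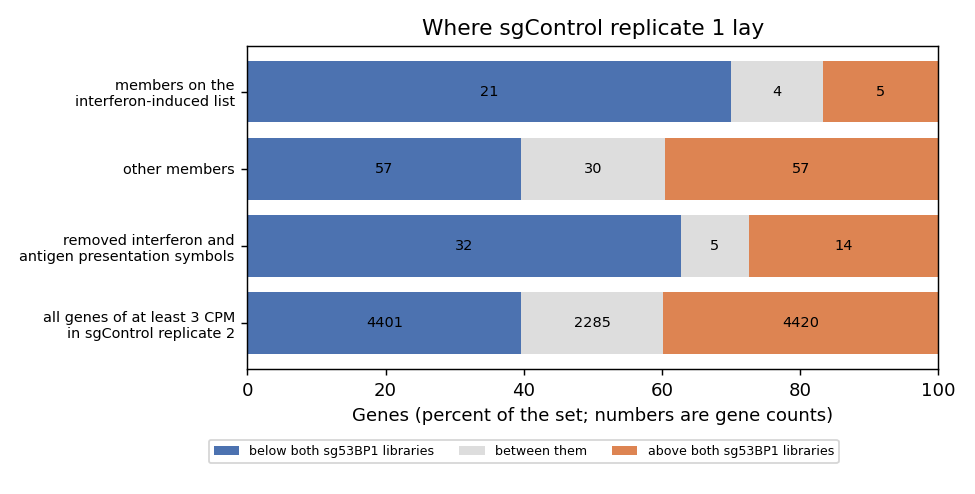
Position of sgControl replicate 1 relative to the 2 sg53BP1 libraries, as the percent of genes in each set, with gene counts inside the bars. It lay below both for 21 of 30 interferon-list members and for 57 of 144 other members, against 4401 of 11106 genes of at least 3 CPM in sgControl replicate 2.

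A fit of the sg53BP1 pair against sgControl replicate 1 alone, which leaves out the library that defines the set, tested 163 of the 174 members. By the edgeR quasi-likelihood test 37 of them were called higher in sg53BP1 and 17 lower at a Benjamini-Hochberg adjusted p of 0.05. The background was 8.77% of 13532 genes called higher and 9.65% called lower, or 18.4% in all. With the DESeq2 Wald test 21 members were called higher and 5 lower, all of them also called by edgeR, and without the low-count filter 24 and 6. The single control library was assumed to vary as the sg53BP1 pair did, because all spread in this fit came from that pair. The fitted coefficient of variation between libraries of a group was 0.180 with both controls and 0.0774 without sgControl replicate 2. Adjusted p-values from this fit therefore do not measure the spread between controls. On the interferon list 14 of 27 tested members were called higher and 3 lower, and of all 74 tested genes on that list 35 were called higher and 12 lower.

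Among members called higher in sg53BP1 than in sgControl replicate 1, HELZ2 differed on the log2 scale by 1.76 ± 0.14 (SE; edgeR adjusted p = 1.34e-33), and LAP3 by 1.72 ± 0.15 (SE; edgeR adjusted p = 3.82e-29). C1R differed by 2.32 ± 0.20 (SE; edgeR adjusted p = 2.90e-28), and EPSTI1, an interferon-responsive gene of stromal and epithelial cells chosen after its values were seen, by 2.83 ± 0.30 (SE; edgeR adjusted p = 7.63e-19). All 4 also passed with DESeq2. FBXO32, a muscle-atrophy ubiquitin ligase subunit that is on no list, stood at 87.4 and 345 CPM in the controls and 157 and 158 CPM in the sg53BP1 libraries, a log2 difference of 0.85 (edgeR adjusted p = 1.26e-08; DESeq2 adjusted p = 2.33e-07). EXD2, an exonuclease of DNA end resection, had 5 counts in sgControl replicate 1 and 316 in replicate 2, against 71 and 75 (edgeR adjusted p = 4.56e-09; DESeq2 adjusted p = 4.33e-04). RRAGD, a small GTPase that signals amino acids to mTORC1, had 2 and 220 counts against 37 and 18, and its edgeR call (adjusted p = 0.00186) was lost with DESeq2 (adjusted p = 0.0843), as was that of BATF2 (edgeR adjusted p = 0.00204; DESeq2 adjusted p = 0.112).

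Among members called lower in sg53BP1, THBS1 differed on the log2 scale by −1.10 ± 0.10 (SE; edgeR adjusted p = 8.61e-26) and also passed with DESeq2. PLXDC2, a transmembrane protein related to plexins, stood at 9.55 and 21.1 CPM in the controls and 3.19 and 2.68 CPM in the sg53BP1 libraries, a difference of −1.70 ± 0.28 (SE; edgeR adjusted p = 6.94e-08). CIITA differed by −1.32 (edgeR adjusted p = 8.43e-06), the most negative value among the tested members on the interferon list. PRDM16, a zinc finger regulator of brown fat and of stem cells, stood at 2.76 and 11.1 CPM against 1.10 and 0.839 CPM, and its edgeR call (adjusted p = 0.0199) was lost with DESeq2 (adjusted p = 0.343), as was that of NGFR (edgeR adjusted p = 6.05e-04; DESeq2 adjusted p = 0.134). DUSP10, a phosphatase of stress-activated kinases, and LRCH2, chosen after their values were seen, complete the members called lower by both tools, with differences of −0.95 and −1.002.

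**Figure D5:**
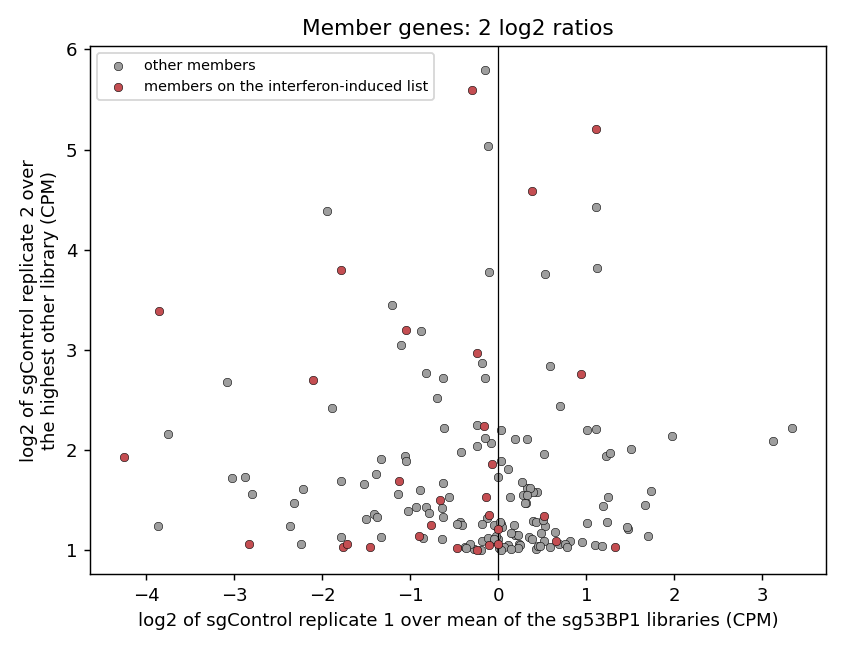
Each of the 174 members by the log2 ratio of sgControl replicate 1 to the mean of the sg53BP1 libraries (x axis) and of sgControl replicate 2 to the highest other library (y axis), both of CPM. On the x axis sgControl replicate 1 was held at 3 counts or more, and the sg53BP1 mean at 3 counts or more over both libraries together. On the y axis the highest other library was set to 3 counts where every other library had fewer. No point lies under 1 on the y axis because the rule requires a ratio of 2, and SLC15A3 and LGALS9 on the interferon list lie farthest to the left among the members of at least 10 CPM.

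The groups of members described from here on were formed after their values were seen, 8 groups holding 90 genes, some of which are also on the lists above. They hold members only, so their sizes leave out how many measured genes of a kind were not members, unless that is given. TGF-beta and matrix factors included the member with the most counts. THBS1 encodes thrombospondin 1, a matrix glycoprotein that activates latent TGF-beta and restrains angiogenesis, and stood at 1717 and 3573 CPM in the controls and 846 and 755 CPM in the sg53BP1 libraries. TGFB2, one of the TGF-beta ligands, stood at 31.3 and 93.8 CPM against 24.99 and 21.0 CPM, and TGFBI, a matrix protein induced by TGF-beta, at 106 and 294 CPM against 85.3 and 85.1 CPM. KCP, a secreted modulator of BMP and TGF-beta ligands that overlaps the member SPMIP1 and could share its reads, stood at 9.07 and 18.95 CPM against 5.29 and 5.93 CPM. Both control libraries were above both sg53BP1 libraries for all 4 genes, where the rule itself sets replicate 2 the highest. KDR, the receptor of VEGF, and EGFL7, a secreted vascular factor, shared that order. The growth factor MDK, the WNT inhibitor DKK2 and the protease ADAMTS13 did not: for these sgControl replicate 1 lay below both sg53BP1 libraries, and MDK had 6 and 162 counts in the controls against 43 and 52. In this group sgControl replicate 1 thus lay above both sg53BP1 libraries in 6 of 9 genes and below both in 3. The background was 39.8% above both and 39.6% below both, for genes of at least 3 CPM in sgControl replicate 2.

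TXNIP and ARRDC4, relatives in the alpha-arrestin family, were both members. TXNIP inhibits thioredoxin and glucose uptake, and its gene responds to glucose through carbohydrate response elements bound by MondoA and ChREBP. It stood at 39.4 and 191 CPM in the controls and 45.5 and 37.9 CPM in the sg53BP1 libraries. ARRDC4 stood at 1.32 and 9.80 CPM against 3.25 and 3.802 CPM. sgControl replicate 2 was the highest for both, and sgControl replicate 1 lay within the sg53BP1 pair for TXNIP and below it for ARRDC4. The relatives ARRDC1, ARRDC2 and ARRDC3 were not members. The stretch before the start of TXNIP is shown because it holds a pair of such elements, searched on both strands as CACG, 1 base of any kind and G, repeated after 5 bases of any kind. These letters were found in 1 of the 122 member windows and in 20 of all 27305 (0.0732%). The match is in capitals, on RefSeq's GRCh38.p14.
TXNIP, chr1:145996621-145996697, minus strand: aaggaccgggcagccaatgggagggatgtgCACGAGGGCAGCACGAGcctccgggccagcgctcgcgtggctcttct

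Cytokines, immune receptors and their signalling genes gave 18 members, TNFSF18 among them. CCR1, a receptor of inflammatory chemokines, stood at 3.603 and 47.3 CPM in the controls and 6.94 and 5.82 CPM in the sg53BP1 libraries, a ratio of 6.82. GIMAP2, an immune-associated GTPase of lymphocytes, had 7 and 195 counts against 16 and 19, for a ratio of 10.9, and is among the members with an ISRE core. TNFSF4, which encodes OX40L and lies next to TNFSF18 on chromosome 1, had 18 and 94 counts against 11 and 27. Its ratio was 3.70, so these neighbours differed widely in ratio. IFNLR1, the receptor subunit of type III interferons, had 11 and 55 counts against 22 and 20, and UNC93B1, which carries TLR3 to endosomes, stood at 28.4 and 75.5 CPM against 31.5 and 37.4 CPM. IL1R1, IL23A, IL11RA, CXCL16, RASGRP3, PIK3AP1, LACC1, ADGRE1, CD177 and FCRLA complete the group with C3AR1, TNFSF10 and TNFSF18. In 10 of the 18 sgControl replicate 1 lay below both sg53BP1 libraries and in 4 above both. The background for these positions was 39.6% and 39.8% of genes of at least 3 CPM in sgControl replicate 2.

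Genes of axon guidance, neuronal adhesion and the synapse gave 15 members. On the list of ion channels and synaptic genes, none of the 25 genes of at least 3 CPM in sgControl replicate 2 was a member. NFASC, which encodes the adhesion molecule neurofascin, stood at 3.002 and 61.9 CPM in the controls and 11.6 and 10.7 CPM in the sg53BP1 libraries. CLSTN2, a synaptic cadherin-related protein, stood at 5.46 and 74.6 CPM against 31.5 and 25 CPM. In both genes sgControl replicate 1 was the lowest library, and the edgeR fit without sgControl replicate 2 called both higher in sg53BP1 (adjusted p = 9.06e-10 and 1.56e-25). PLXNA4, a semaphorin receptor, stood at 86.6 and 213 CPM against 66.1 and 65.8 CPM, and NGFR, the low-affinity neurotrophin receptor, at 5.16 and 12 CPM against 2.202 and 1.51 CPM. These had both controls above the sg53BP1 pair, as 8 of the 15 did. Since the rule sets sgControl replicate 2 highest, this asks only for sgControl replicate 1 above both. That held for 39.8% of genes of at least 3 CPM in sgControl replicate 2. SLIT3, SEMA6A, DOCK3, SORCS1, DOC2A, KALRN, PEX5L, CSMD3, PPFIA4 and MEGF10 make up the rest with PLXDC2. The 9 measured neuronal and glial markers, most of whose counts came from MAP2, summed to 44.1 and 65.8 CPM in the controls and 95.7 and 87.1 CPM in the sg53BP1 libraries, while STMN2 had no count in either control. Their part in these results was not tested.

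Zinc finger genes with a numbered ZNF symbol gave 11 members, 6 of them on chromosome 19, where such genes cluster. Most encode repressors with a KRAB domain that bind transposable elements, although ZNF469 is known instead for its link to corneal disease. They were 3.27% of the 336 such genes of at least 3 CPM in sgControl replicate 2, against 1.57% for all genes. ZNF736 had 24 and 244 counts in the controls and 67 and 82 in the sg53BP1 libraries. ZNF426 had 10 and 176 counts against 62 and 39, ZNF525 2 and 110 against 36 and 17, and ZNF354C 0 and 76 against 9 and 3. sgControl replicate 1 was the lowest library for these and lay below both sg53BP1 libraries in 7 of the 11 genes. Among the 336 numbered ZNF genes of at least 3 CPM it lay below both for 143. ZNF107, ZNF432, ZNF350, ZNF117, ZNF600 and ZNF585A had ratios between 2.04 and 2.39, and ZNF469 had a ratio of 2.94. Zinc finger genes share sequence, so reads could be split between them in counting, and ZNF117 overlaps the retroviral gene ERV3-1.

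Transporters and channels gave 12 members and metabolic or lysosomal genes 20. LGMN, the lysosomal protease legumain, stood at 13.8 and 67.5 CPM in the controls and 15.5 and 15.04 CPM in the sg53BP1 libraries. IL4I1, a secreted amino acid oxidase that acts on tryptophan and phenylalanine, had 22 and 167 counts against 26 and 27, but overlaps NUP62 and ATF5. QPRT, which makes a precursor of NAD from a tryptophan breakdown product, had 8 and 79 counts against 23 and 13. By count sgControl replicate 1 was the lowest library for both genes, but at such counts its order against the sg53BP1 pair cannot be told. PPARGC1A, the coactivator PGC-1alpha of mitochondrial genes, stood at 8.17 and 17.4 CPM against 5.40 and 3.86 CPM, and CA9, a hypoxia-induced carbonic anhydrase, at 2.52 and 6.24 CPM against 1.65 and 1.90 CPM. Among transporters, ATP10A, a phospholipid flippase, stood at 6.24 and 46.9 CPM against 16.6 and 18.8 CPM, and HEPH, a copper-containing iron oxidase, had 6 and 88 counts against 7 and 2. sgControl replicate 1 lay above both sg53BP1 libraries in 11 of the 20 metabolic genes and in 5 of the 12 transporters. The background was 39.8% of genes of at least 3 CPM in sgControl replicate 2, so the transporters were near it.

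GDF15, a stress cytokine of the TGF-beta family and a target of p53, stood at 2.22 and 25.1 CPM in the controls and 7.54 and 7.77 CPM in the sg53BP1 libraries. PURPL and PINCR, non-coding RNAs induced by p53, were members as well, with 56 and 62 counts in sgControl replicate 2 and at most 23 and 16 elsewhere. GDF15 was however the only member among 40 p53-activated targets of at least 3 CPM. The edgeR fit without sgControl replicate 2 called GDF15 higher in sg53BP1 by 1.78 on the log2 scale (adjusted p = 1.06e-06; DESeq2 adjusted p = 0.00371).

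Genes that are not protein-coding gave 11 members, or 6.32%, against 3.12% of genes of at least 3 CPM in sgControl replicate 2. SCAMP1-AS1 stood at 3.72 and 9.09 CPM in the controls and 3.47 and 4.25 CPM in the sg53BP1 libraries. SUGCT-AS1 had 11 and 117 counts against 10 and 17, and PRICKLE2-DT 41 and 115 against 39 and 33. The gene spans of SUGCT-AS1 and PRICKLE2-DT overlap SUGCT and PRICKLE2, and the labels name no strand setting. Exons were not compared, so whether the genes of each pair shared reads was not tested. The other 8 are LINC01914, LINC01444, PINCR, PURPL, LOC107985216, RNU6-26P, OR52K3P and PKD1L2, the last of which is annotated as a polymorphic pseudogene.

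The remaining 56 members were in no list and no group. Their levels in sgControl replicate 2 reached from 3.03 CPM to the 345 CPM of FBXO32. For 19 of them sgControl replicate 1 lay below both sg53BP1 libraries and for 21 above both, against backgrounds of 39.6% and 39.8%. Among them PLEKHA4, an adaptor that promotes WNT signalling, stood at 23.4 and 108 CPM against 22.8 and 22.9 CPM, with 3 libraries at nearly one level. TRO, which encodes the adhesion protein trophinin, had no count in sgControl replicate 1, 123 in replicate 2 and 56 and 39 in the sg53BP1 libraries. PLAAT4, a phospholipase also known as a tumour suppressor induced by retinoids and interferon, stood at 10.3 and 20.8 CPM against 8.04 and 7.33 CPM.

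By position in the annotation, the chromosomes with the most members were chromosome 1 with 19, chromosome 11 with 14 and chromosome 19 with 13. Chromosome 19 thus held 7.47% of members, against 6.32% of genes of at least 3 CPM in sgControl replicate 2. A total of 4 pairs of members were direct neighbours among the listed genes: TNFSF18 with TNFSF4, SMTNL1 with UBE2L6, UBE2L6 with SERPING1, and BTN3A1 with BTN3A3. SMTNL1, UBE2L6 and SERPING1 thus form a run of 3 on chromosome 11. In 4 more pairs the neighbour was a gene of the same pattern that the symbol rule had removed: LIPA with IFIT2, IL23A with STAT2, PATL2 with B2M and GCA with IFIH1. The whole gene spans of 89 of the 174 members overlapped another annotated gene, small RNAs and processed pseudogenes aside. Among them were THBS1 with FSIP1, WARS1 with WDR25 and CCR1 with CCR3. BTN3A1 and BTN3A3 are close paralogs, as KRTAP2-3 is to other keratin-associated genes, so their counts are uncertain.

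In the comparison of both sg53BP1 libraries with both sgControl libraries, 163 members were tested and 7 were called lower in sg53BP1 (edgeR adjusted p under 0.05), against 3.01% of 13140 genes called lower and 5.08% in either direction. None was called higher, where the background was 2.07%, and none had an unadjusted p under 0.05 in that direction in edgeR or DESeq2; 40 had one in the lower direction with edgeR. The rule used the same 4 libraries, so nothing is read from these counts. The 7 were CIITA, PLXDC2, NGFR, CSMD3, SAMD3, SORCS1 and MRGPRX3. In each sgControl replicate 1 also lay above both sg53BP1 libraries, an order that the rule and the call together favour. In the comparison that the authors' deposited table gives, 25 of the 174 members had an adjusted p under 0.05, all higher in the sgControl columns, against 6.17% of 14048 genes with such a value. The rule fixed that direction and used the same libraries, so nothing is read from this count either. The edgeR count rested on which libraries entered: it was 173 without sgControl replicate 1, 54 without sgControl replicate 2, of which 37 were then higher in sg53BP1, and 0 without either sg53BP1 library, where 10 and 13 members had an unadjusted p under 0.05.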

How the data were processed

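RNA of 4 hTERT-RPE1 libraries, 2 labelled sgControl and 2 labelled sg53BP1, was sequenced as paired-end reads, per the labels' protocols. The submitters' processing notes name the genome build hg19, the counter HTSeq 0.6.0 and the aligners Bowtie2 2.2.3 and HISAT2 2.1.0, without saying which did what; which annotation was used, and whether strand was, is not stated there. The authors deposited 1 table of read counts per gene, not normalized, and beside it their own comparison of the groups. Per the file headers that comparison holds a log2 fold change and its error, raw and adjusted p-values, a test score, and a signal averaged over the libraries, which was not used. Columns were matched to samples by the descriptions in the labels.

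The table had 20050 rows; 397 repeats of an Ensembl identifier, with identical counts, were removed. CPM was taken on column totals, and the thresholds were 3 CPM and a ratio of 2. The members, the gene lists and the groups were chosen with earlier results of these data known. Tests across all genes used the quasi-likelihood test of edgeR 4.0.16 (R 4.3.3; genes filtered by filterByExpr, TMM scaling, robust estimation, group as the only term) with Benjamini-Hochberg adjustment and a threshold of 0.05; each standard error was obtained from the fold change and the F value, and the script was tested on simulated data. Alternatives were DESeq2 1.42.0, its size factors, no low-count filter, the replicate number as a block, other thresholds, TMM-scaled CPM, and leaving out each library. Gene types, order and overlaps came from GENCODE release 29, on GRCh38, with no coordinates taken from it; all 174 members matched by identifier. Promoter windows came from RefSeq (GRCh38.p14) by symbol. Named genes were members with a gene symbol: the 12 largest ratios at 10 CPM or more, the 8 highest CPM, up to 4 of each list with at least 3 members, the 3 highest non-coding members, the 3 genes on either side of the ratio threshold, and the 4 members of at least 10 CPM with the most extreme ratio of sgControl replicate 1 to the sg53BP1 mean in each direction; other genes were named after their values were seen. Counting intervals are Clopper-Pearson at 95% and, like the floor of 3 counts, take in only the error of counting: the reads carry no molecular identifiers, so they are not independent molecules.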

Additional observations from a re-analysis of the deposited data

How the results depend on the processing

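The number of members was 172 with TMM-scaled CPM and 164 with DESeq2 size factors, against 174; it was 297 at a minimum of 1 CPM, 97 at 10 CPM, 402 at a ratio of 1.5 and 69 at a ratio of 3, by construction of the thresholds. Dropping a library other than sgControl replicate 2 from the rule gave 193 to 399 members, the highest without sgControl replicate 1. With TMM-scaled CPM the interferon list gave 29 members against 30 and the complement list 4 against 4, and the ratios of all 35 named members stayed within their counting intervals. Members with sgControl replicate 1 below both sg53BP1 libraries numbered 76 with TMM scaling and 47 at 10 CPM, against 78, and interferon-list members 20 and 18, against 21; these alternatives were added after seeing the data.

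In the comparison of both groups, 667 genes and 7 members were called. Leaving out each replicate gave 5 to 3358 genes and 0 to 173 members. Without the low-count filter 1548 genes and 56 members were called, and DESeq2 called 993 genes and 24 members; the cause was not tested. With the replicate number as a block 297 genes and 2 members were called. The labels do not say that replicate numbers pair the libraries. Deviations of same-numbered libraries from their group means correlated across 13033 genes with r = 0.0379. With 2 libraries per group this cannot decide whether same-numbered libraries were paired. In the fit against sgControl replicate 1 alone, the counts of 2493 genes (1187 higher and 1306 lower in sg53BP1) and 54 members (37 and 17) became 1406 genes (631 and 775) and 30 members (24 and 6) without the low-count filter, and 1298 genes (622 and 676) and 26 members (21 and 5) with DESeq2. With DESeq2 size factors the members called were 51 (34 and 17). Leaving out an sg53BP1 library from that fit leaves 1 library per group and no test. Among 3 CPM genes a level rests on as few as 51 counts, which limits the ratios of low members.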
